A study of Sus scrofa with 8 samples.

Results

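The 9 genes described here encode matrix metalloproteinases and inhibitors of extracellular proteases in the right ventricle of the pig. They are the secreted gelatinase MMP2, the membrane-bound proteinases MMP14 and MMP15, MMP19, the 4 tissue inhibitors of metalloproteinases TIMP1 to TIMP4, and the serpin SERPINE2. The genes were taken by name from the gene name column of the authors' deposited comparison, and TIMP2, which has no name there, from its one-to-one human orthologue. All 9 matched 1 gene model each among 31908 in the count table, and all 9 were among the 13697 that passed the filter on low counts.

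Free wall of the right ventricle was taken from 8 pigs of Yorkshire Cross stock for bulk RNA sequencing, 1 library per animal. The banded group was 4 castrated male piglets, 4.5 ± 0.6 weeks old and 6.4 ± 1.3 kg at surgery, whose main pulmonary artery was constricted with a tape until peak right ventricular pressure reached about 30 to 40 mmHg. The control group was 4 untreated pigs of similar age and weight that were housed for 8 weeks, with no sex and no sham operation named for them. How long the band was in place is not stated in the labels. Surgery, sex and any sequencing batch therefore cannot be told apart from banding.

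Matrix metalloproteinases are zinc-dependent enzymes that are made as inactive precursors and cut collagens, other matrix proteins and cell-surface proteins once their propeptide is removed. TIMPs bind the active site and block it, and TIMP2 also bridges the precursor of MMP2 to MMP14 at the cell membrane, where MMP2 is activated. Serpins trap serine proteases instead, and SERPINE2 (protease nexin-1) inhibits thrombin, urokinase and plasmin close to the cell surface. In the heart these enzymes and inhibitors are made largely by fibroblasts, vascular cells and leukocytes, with TIMP3 and TIMP4 also known from cardiomyocytes. In bulk tissue, fewer cells of a type and less RNA per cell cannot be told apart.

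Library totals were 31033679 to 34183338 counts, and 30.5% to 43.9% of them came from the mitochondrial genome. Banded 3 stood apart from the other banded libraries, with Spearman correlations of 0.9551 to 0.9612 to them across tested genes, against 0.9689 to 0.9775 among banded 1, 2 and 4. Controls correlated at 0.9751 to 0.9859 with each other. The log2 fold changes of the authors' deposited table differed from a fit without banded 3 by a median of 0.00028 over 11297 genes, and from the fit to all 8 libraries by a median of 0.074 over 11295 genes. Many results are therefore given with and without banded 3, though not every one that it moves. Levels are given as CPM, the usual unit of counts scaled to library size, here after TMM (trimmed mean) normalisation. The 6 cardiomyocyte markers summed to 28650 to 36363 CPM in banded pigs and 19238 to 25211 CPM in controls, with no overlap. MYL2 was called higher by edgeR, TNNT2, ACTN2, MYBPC3, RYR2 and TNNI3 were not, 3 of the 6 had a positive log2 fold change, 5 an unadjusted p under 0.05, and none was at 0. TNNI3 was low, at 2.44 to 11.3 CPM in banded pigs and 12.6 to 20.6 CPM in controls. The part of cardiomyocyte RNA in the values below was not tested. Skeletal muscle markers did not pass the filter on low counts.

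SERPINE2 rose and MMP14 fell in banded right ventricle, and the other 7 genes did not pass the test at an adjusted p of 0.05. That is 1 member higher and 1 lower of 9, where 6.97% of all 13697 tested genes were called (3.47% higher and 3.5% lower) by the quasi-likelihood test of edgeR with Benjamini-Hochberg adjustment. For 4 members the groups were separate, SERPINE2 and TIMP1 with every banded pig higher and MMP14 and MMP19 with every banded pig lower. Such a separation held for 15.9% of all tested genes, 7.66% with banded pigs higher and 8.2% with banded pigs lower. An unadjusted p under 0.05 was reached by 5 members, against 23.8% of all tested genes. The median log2 fold change of the 9 genes, banded over control, was -0.21, against 0.02 over all tested genes, and without banded 3 it was -0.40, against 0.01. DESeq2 and limma-voom also called SERPINE2 and MMP14 and no other member, with 12.5% and 9.79% of genes called overall. The authors' deposited table has the same 2 members under an adjusted p of 0.05, among 10.6% of its genes. Its fold changes lay far nearer to the fit without banded 3 (median difference 0.00028) than to the fit to all 8 libraries (0.074). It therefore may not rest on the same 8 libraries.

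**Figure D1:**
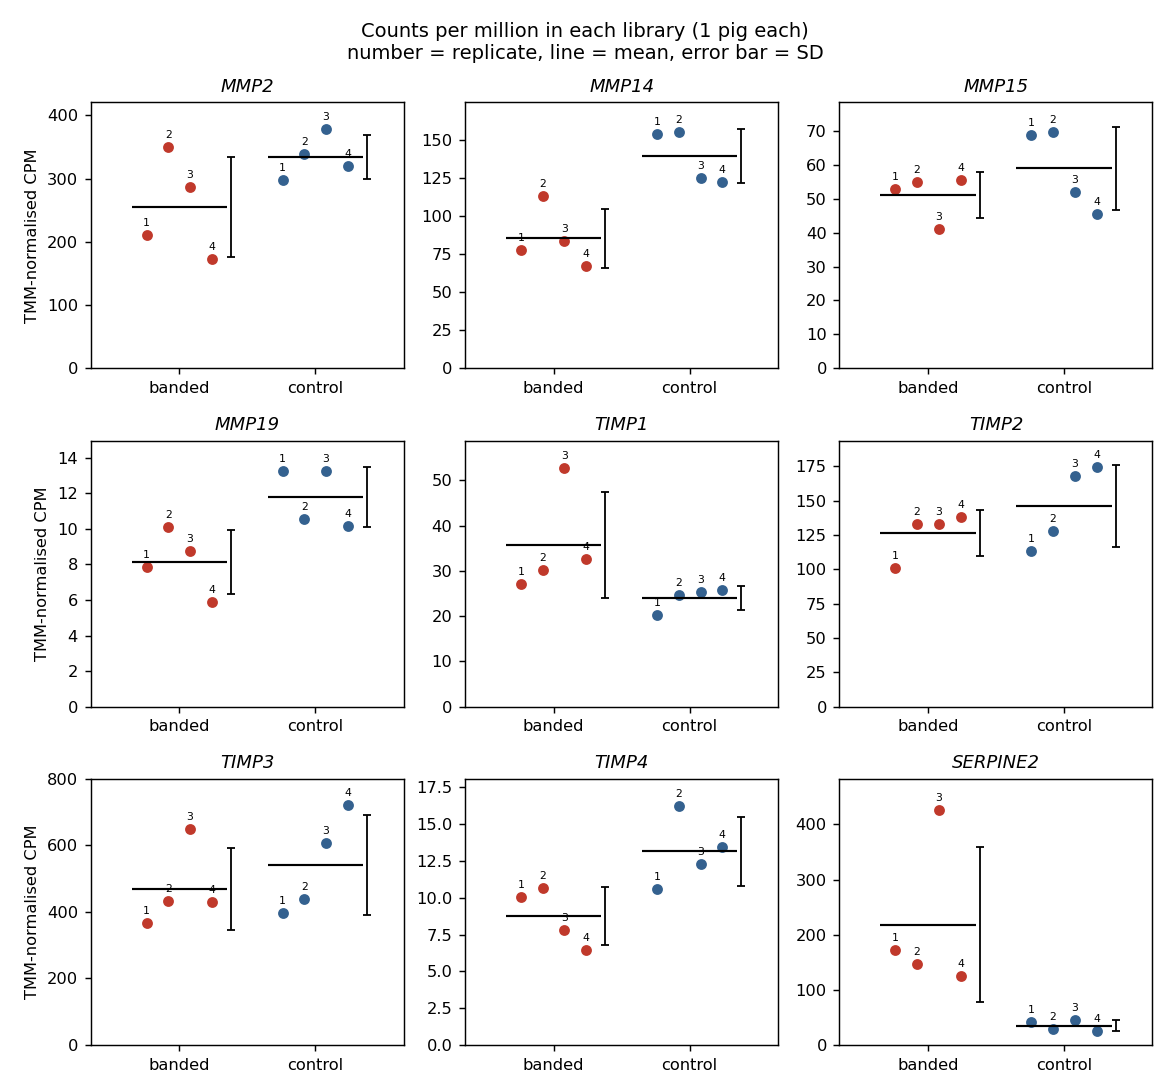
TMM-normalised CPM (y axis, from 0) of the 9 genes in each of the 4 banded and 4 control libraries, with replicate numbers beside the points, the group mean as a line and the SD as a bar. SERPINE2 lies above every control in all 4 banded libraries with banded 3 at 427 CPM, and MMP14 lies below every control at 67.2 to 113 CPM.

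Among the proteinases, MMP14 was the member that passed the test. MMP14 (ENSSSCG00000002039, chromosome 7, 76174500 to 76185923 on the minus strand of Sscrofa11.1) encodes MT1-MMP, a collagenase anchored in the cell membrane and the main activator of pro-MMP2. It was at 77.7, 113, 83.4 and 67.2 CPM in banded 1 to 4, against 154, 155, 125 and 123 CPM in controls 1 to 4. Every banded library was below every control, with banded 2 nearest to them. The log2 fold change was -0.71 ± 0.17 (SE), a 1.63-fold lower level, with an edgeR adjusted p of 0.0309 and a mean of 85.3 ± 19.5 CPM in banded pigs against 139 ± 17.8 CPM in controls (SD, n = 4 each). The adjusted p was 0.0478 without banded 3. The call ended without banded 1 (0.0699), banded 4 (0.0569), control 1 (0.0966), control 2 (0.1) or control 3 (0.0649), with log2 fold changes of -0.87 to -0.61 over the 8 fits that left out 1 library. The gene model lies within that of SLC7A7 on the opposite strand and shares 201 exonic bases with it, and the authors counted reads by strand.

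MMP2 (ENSSSCG00000002829, chromosome 6, 30058594 to 30086982, minus strand), which encodes gelatinase A, had the highest level of the 4 proteinases. Its values were 210, 350, 287 and 173 CPM in banded 1 to 4, against 297, 338, 379 and 320 CPM in controls 1 to 4. The groups overlapped, because banded 2 stood above 3 of the 4 controls while banded 1, 3 and 4 stood below all of them. The log2 fold change of -0.39 (95% interval -0.84 to 0.07) did not pass the test (edgeR adjusted p = 0.286). The coefficient of variation of MMP2 was 31.2% in banded pigs and 10.4% in controls, a difference that was not tested.

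MMP19 (ENSSSCG00000000368, chromosome 5, 21280130 to 21285774, minus strand), a secreted proteinase of basement membrane proteins, was at 7.83, 10.1, 8.75 and 5.87 CPM in banded 1 to 4. The controls had 13.3, 10.6, 13.2 and 10.1 CPM. The groups were separated only narrowly, by banded 2 and control 4, and the log2 fold change of -0.53 (95% interval -0.95 to -0.11) gave an unadjusted p of 0.0174 and an edgeR adjusted p of 0.121. MMP15 (ENSSSCG00000002806, chromosome 6, 19890884 to 19918244, plus strand), the membrane-type relative MT2-MMP, ranged from 41.1 to 55.5 CPM in banded pigs and from 45.4 to 69.7 CPM in controls. Its log2 fold change was -0.21 (95% interval -0.57 to 0.15, edgeR adjusted p = 0.486). All 4 proteinases had negative log2 fold changes, with a median of -0.46, whereas 48.4% of all tested genes had a negative one.

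The order of the banded libraries was alike for MMP2, MMP14 and MMP19. Banded 2 was the highest and banded 4 the lowest of the banded group for each of the 3 genes, and for TIMP4 as well. LRBA and KDM4C, picked below for their likeness to MMP14, also had banded 2 highest and banded 4 lowest, and ECHDC2 did not. How often this holds among all tested genes was not measured, so it is not shown to be particular to proteinases or fibroblast genes. The summed level of 6 fibroblast markers (DCN, LUM, PDGFRA, COL1A1, TCF21, FBLN1) was also highest in banded 2 at 4511 CPM and lowest in banded 4 at 2750 CPM, within a range of 2750 to 4511 CPM in banded pigs against 2742 to 3713 CPM in controls. Of those markers, FBLN1 was called higher and PDGFRA lower, and none was at 0. In controls 1 to 4 the fibroblast marker sum was 2908, 2742, 3534 and 3713 CPM, an order that MMP2, MMP14 and MMP19 did not share. MMP14 was at 154, 155, 125 and 123 CPM in the same controls. The part of fibroblast number in the proteinase values was not tested. Banded 4 also held 1786 CPM of red blood cell markers (HBB, ALAS2, AHSP), against 129 to 173 CPM in the other banded libraries and 74.6 to 321 CPM in controls, and the part of blood in its values was not tested. Banded 1 held 289 CPM of adipocyte markers, against 3.71 to 15.6 CPM in the other banded libraries and 12.2 to 32.2 CPM in controls. The part of fat tissue in the values of banded 1 was not tested.

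**Figure D2:**
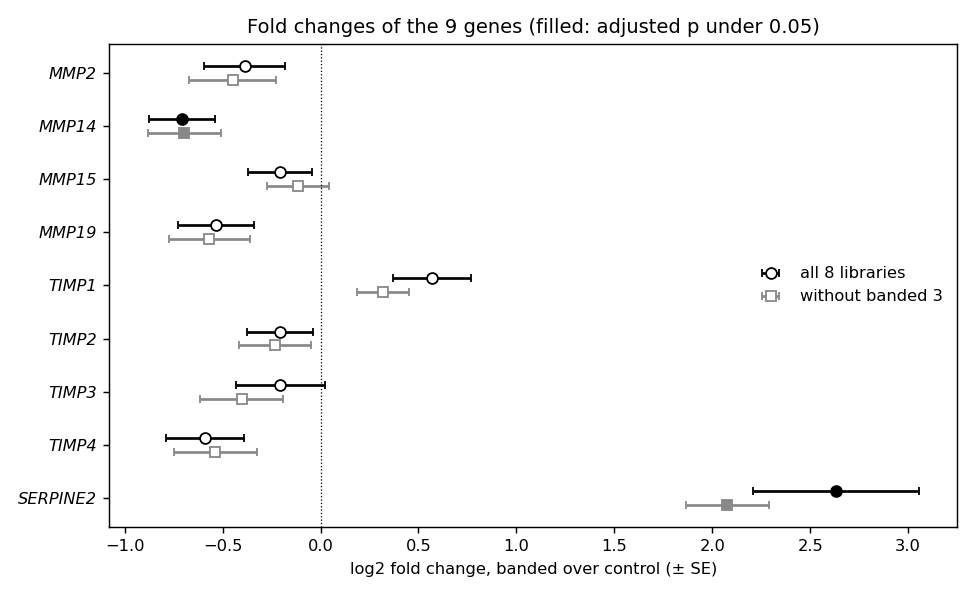
Log2 fold change of banded over control (x axis, with SE) for the 9 genes from all 8 libraries (circles) and without banded 3 (squares), where filled symbols mark an adjusted p under 0.05. SERPINE2 (2.63 and 2.08) and MMP14 (-0.71 and -0.70) are filled in both fits, and the remaining genes lie between -0.59 and 0.57.

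None of the 4 TIMPs passed the test by edgeR, and TIMP1 and TIMP4 had an unadjusted p under 0.05. TIMP1 had a positive log2 fold change, and TIMP2, TIMP3 and TIMP4 had negative ones. TIMP1 (ENSSSCG00000012277, chromosome X, 42102172 to 42106297, plus strand) encodes a broad, inducible inhibitor that binds MMP14 only weakly. It was at 27.0, 30.1, 52.8 and 32.7 CPM in banded 1 to 4, against 20.2, 24.7, 25.4 and 25.8 CPM in controls 1 to 4. All 4 banded libraries were above all controls, banded 1 only just, and banded 3 was well above the rest. The log2 fold change was 0.57 ± 0.20 (SE, edgeR adjusted p = 0.11), and without banded 3 it was 0.32 ± 0.13 (adjusted p = 0.183).

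TIMP4 (ENSSSCG00000033000, chromosome 13, 68179805 to 68190942, minus strand), a TIMP known for its high level in heart, was at 10.0, 10.7, 7.82 and 6.43 CPM in banded 1 to 4. The controls had 10.6, 16.2, 12.3 and 13.4 CPM. The groups touched only through banded 2 and control 1, and the log2 fold change of -0.59 (95% interval -1.02 to -0.15) did not pass the test (edgeR adjusted p = 0.102, unadjusted p = 0.0127). TIMP3 (ENSSSCG00000031866, chromosome 5, 12185816 to 12242637, minus strand), which stays bound to the matrix and also inhibits ADAM proteinases, was the most abundant of the 9 genes. Its values were 367, 433, 650 and 429 CPM in banded 1 to 4, against 396, 440, 608 and 722 CPM in controls 1 to 4, so that both groups held low and high libraries. The log2 fold change was -0.20 (95% interval -0.71 to 0.30, edgeR adjusted p = 0.636) and -0.40 without banded 3 (adjusted p = 0.289).

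TIMP2 (ENSSSCG00000017164, chromosome 12, 3254493 to 3300835, plus strand), the inhibitor that joins pro-MMP2 to MMP14, was at 101, 133, 133 and 138 CPM in banded 1 to 4. The controls had 114, 128, 168 and 175 CPM, and the ranges overlapped. The log2 fold change was -0.21 (95% interval -0.58 to 0.16, edgeR adjusted p = 0.496). The deposited table gives this model 48.6% protein identity with human TIMP2, against 84.1% to 99.5% for the other 8 members, and 5512 of its 5581 exonic bases lie within the span of RefSeq TIMP2 on the same build.

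TIMP1, TIMP3 and TIMP4 each lie inside a synapsin gene on the opposite strand. The models share 0 exonic bases between TIMP1 and SYN1 and between TIMP3 and SYN3, and 90 between TIMP4 and SYN2. SYN1 was at 42.5 ± 9.52 CPM in banded pigs and 53.2 ± 7.41 CPM in controls (SD, n = 4 each, edgeR adjusted p = 0.285), SYN3 was under 1 CPM on average in both groups, and SYN2 did not pass the filter on low counts.

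SERPINE2 (ENSSSCG00000016233, chromosome 15, 125747294 to 125816215, minus strand) had the largest change of the 9 genes. It was at 173, 147, 427 and 125 CPM in banded 1 to 4, against 42.4, 28.7, 44.5 and 25.0 CPM in controls 1 to 4. The lowest banded library exceeded the highest control, and banded 3 held well over the level of any other banded library. The mean was 218 ± 141 CPM in banded pigs and 35.2 ± 9.70 CPM in controls (SD, n = 4 each), a 6.2-fold higher level (log2 fold change 2.63 ± 0.42, SE) with an edgeR adjusted p of 0.0101. Only 0.825% of tested genes had a larger absolute log2 fold change. Without banded 3 the banded mean was 148 ± 24 CPM (SD, n = 3), the level was 4.22-fold higher (log2 fold change 2.08 ± 0.21) and the adjusted p was 0.00043. The call held without any 1 of the 8 libraries, with an adjusted p of at most 0.0372. In the authors' deposited table, whose fold changes run control over banded, SERPINE2 is listed at -2.08 with an adjusted p of 1.39e-18, and MMP14 at 0.70 with 0.00569. Of the 5542 exonic bases of the SERPINE2 model, 3879 lie within the span of RefSeq SERPINE2 on the same build. The rest of the model also enters its counts.

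Banded 3 also held the highest summed level of 6 smooth muscle and pericyte markers, 2275 CPM, within 741 to 2275 CPM in banded pigs against 890 to 1197 CPM in controls. CNN1 alone made up 1348 CPM of it. None of the 6 markers was called by edgeR or at 0, 3 had an unadjusted p under 0.05, 4 had a negative log2 fold change, and the median was -0.43. The 5 markers other than CNN1 summed to 585 to 927 CPM in banded pigs and 804 to 1082 CPM in controls. Macrophage markers summed to 540 to 1020 CPM in banded pigs and 332 to 538 CPM in controls, with 0 of 6 called by edgeR, 4 at an unadjusted p under 0.05 and none at 0, and banded 3 was at 653 CPM. The part of either cell type in the SERPINE2 values was not tested.

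The genes whose profile over the 8 libraries lay nearest to that of SERPINE2 were FHL1, FSTL3 and CNN1. They were found among 12098 genes with a symbol by the root mean square difference of log2 CPM after centring each gene on its own mean, which was 0.36 for FHL1, 0.41 for FSTL3 and 0.45 for CNN1. FHL1, a LIM-domain gene of striated muscle, was at 837 ± 389 CPM in banded pigs and 200 ± 19.4 CPM in controls, and FSTL3, a secreted activin antagonist, at 67.8 ± 16.6 CPM in banded pigs and 11.12 ± 0.629 CPM in controls (SD, n = 4 each). CNN1, smooth muscle calponin, was not called (edgeR adjusted p = 0.0639), and was called without banded 3 (0.013). For MMP14 the nearest were LRBA (0.13), ECHDC2 (0.13) and KDM4C (0.14). LRBA and ECHDC2 were called lower and KDM4C was not (edgeR adjusted p of 0.0165, 0.0206 and 0.166). Both calls ended without control 1 or control 2, with adjusted p of 0.0569 to 0.0602 for LRBA and 0.066 to 0.0737 for ECHDC2. The genes nearest to SERPINE2 and MMP14 were picked by profiles that include the difference between the groups. A change in the same direction thus follows from the choice and is not a separate result.

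Levels of different genes were compared as RPKM, that is, CPM per kilobase of gene model. The order therefore depends on the lengths of the models. The TIMP4 model has 5534 bases and the MMP19 model 1521. In mean CPM, TIMP4 was above MMP19 in banded pigs (8.74 against 8.14) and in controls (13.1 against 11.8). Of the 1038 exonic bases of the TIMP1 model, 772 lie within the span of RefSeq TIMP1. In banded pigs the order was TIMP3 (102 ± 26.9 RPKM), MMP2 (72.2 ± 22.5), SERPINE2 (39.3 ± 25.4), TIMP1 (34.3 ± 11.2), TIMP2 (22.6 ± 3.03), MMP14 (20.5 ± 4.70), MMP15 (11.8 ± 1.56), MMP19 (5.35 ± 1.17) and TIMP4 (1.58 ± 0.36), as mean and SD of 4 libraries. In controls it was TIMP3 (118 ± 32.9 RPKM), MMP2 (94.5 ± 9.82), MMP14 (33.5 ± 4.29), TIMP2 (26.1 ± 5.34), TIMP1 (23.1 ± 2.51), MMP15 (13.6 ± 2.80), MMP19 (7.76 ± 1.11), SERPINE2 (6.34 ± 1.75) and TIMP4 (2.38 ± 0.43). By these means SERPINE2 stood at position 3 in banded pigs and 8 in controls, and MMP14 at 6 in banded pigs and 3 in controls. The banded mean of SERPINE2 was raised by banded 3. SERPINE2 was at 31.2, 26.4, 77.0 and 22.6 RPKM in banded 1 to 4, against 26.0, 29.0, 50.8 and 31.5 RPKM for TIMP1. It was thus below TIMP1 in banded 2 and 4, and its banded range also overlapped those of TIMP2 and MMP14. The ranges of neighbours overlapped for TIMP3 with MMP2, MMP2 with SERPINE2, SERPINE2 with TIMP1 and TIMP2 with MMP14 in banded pigs. In controls they overlapped for TIMP3 with MMP2, MMP14 with TIMP2, TIMP2 with TIMP1 and MMP19 with SERPINE2. Within each of the 4 banded libraries MMP2 was above SERPINE2, most narrowly in banded 3 (81.4 against 77.0 RPKM). Within each of the 4 controls MMP19 was above SERPINE2, most narrowly in control 3 (8.70 against 8.03 RPKM). The other overlapping neighbours changed order between libraries, so those places are not resolved.

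**Figure D3:**
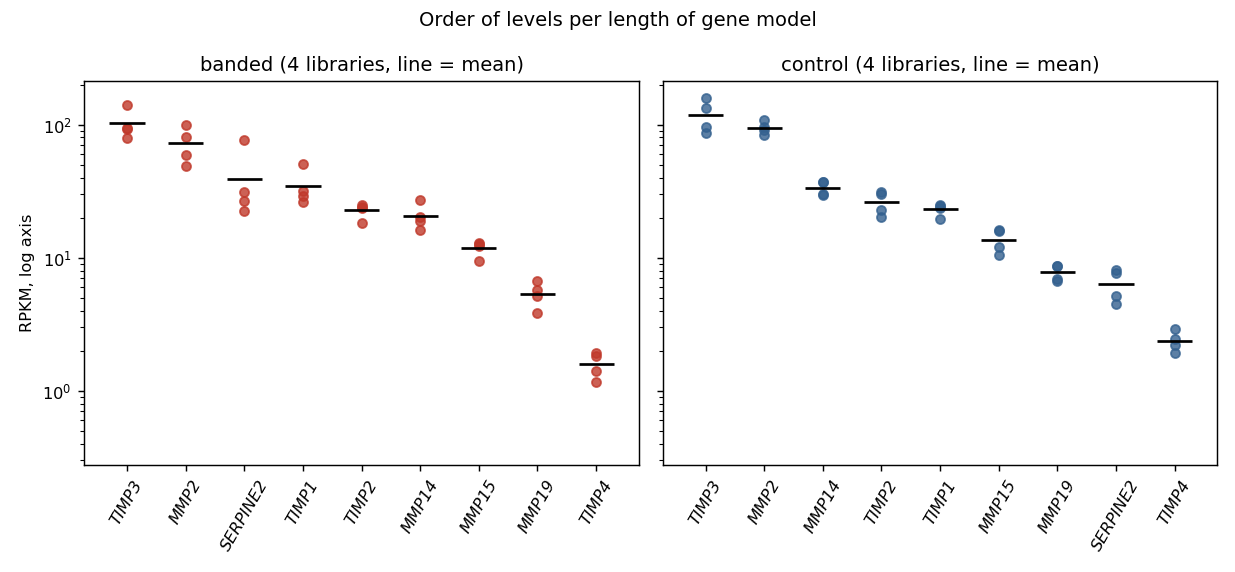
RPKM of the 9 genes in the 4 banded libraries (left) and the 4 control libraries (right), ordered by group mean (line), on a log axis. By these means SERPINE2 is at position 3 in banded pigs, where banded 3 raises its mean, and 8 in controls. TIMP3 and MMP2 lead and TIMP4 is last in both.

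TIMP3 made up most of the TIMP message per length in each library, 61.9% to 65.0% of the summed RPKM of the 4 TIMPs in banded pigs and 65.9% to 72.9% in controls. TIMP1 took 19.5% to 23.4% in banded pigs and 11.5% to 16.3% in controls, and TIMP4 0.65% to 1.44% in banded pigs and 1.13% to 2.02% in controls. Shares of TIMP1 and of TIMP3 did not overlap between the groups, in opposite directions. As the shares are parts of the same sum, a higher share of TIMP1 lowers the others. The CPM of TIMP3 itself overlapped between the groups. Among the 4 proteinases, MMP2 made up 59.8% to 69.7% in banded pigs and 57.7% to 67.9% in controls.

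Balance between members was measured as the log2 ratio of RPKM within a library, which no scaling of libraries affects. Of the 6 pairs compared, MMP2/TIMP1, TIMP1/TIMP3 and TIMP1/TIMP4 did not overlap between groups. All 3 contain TIMP1, whose CPM was already separate between the groups, so they are not 3 independent results. How often ratios of other gene pairs were separate was not measured. The log2 ratio of MMP2 to TIMP1 was 1.19, 1.77, 0.68 and 0.63 in banded 1 to 4, against 2.12, 2.01, 2.13 and 1.87 in controls 1 to 4. The mean log2 ratio was lower in banded pigs by -0.96 ± 0.27 (SE), with banded 3 and 4 lowest. The RPKM of TIMP1 was 0.326, 0.308, 0.360 and 0.338 times that of TIMP3 in banded pigs, against 0.225, 0.248, 0.185 and 0.158 times in controls, a difference of 0.72 ± 0.15 on the log2 scale. The banded libraries lay close together in this ratio (SD 0.09) and the controls were more spread (SD 0.29). TIMP1/TIMP4 differed by 1.13 ± 0.34 on the log2 scale. Each of these 3 pairs had an exact two-sided permutation p of 0.0286, the smallest that 70 assignments can give, which became 0.0571 after Benjamini-Hochberg adjustment over the 6 pairs and so did not pass 0.05.

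MMP2/TIMP2, MMP14/TIMP2 and MMP14/TIMP3 overlapped between the groups. The MMP14 to TIMP2 ratio was 1.03, 1.14, 0.841 and 0.654 in banded 1 to 4, against 1.82, 1.63, 1.00 and 0.943 in controls 1 to 4 (difference of the log2 ratio -0.53 ± 0.30, exact permutation p = 0.2, adjusted 0.24). Controls 1 and 2 were high and controls 3 and 4 lay among the banded pigs. The MMP2 to TIMP2 ratio differed by -0.24 ± 0.26 on the log2 scale (exact permutation p = 0.429), and MMP14 to TIMP3 by -0.53 ± 0.37 (exact permutation p = 0.2).

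**Figure D4:**
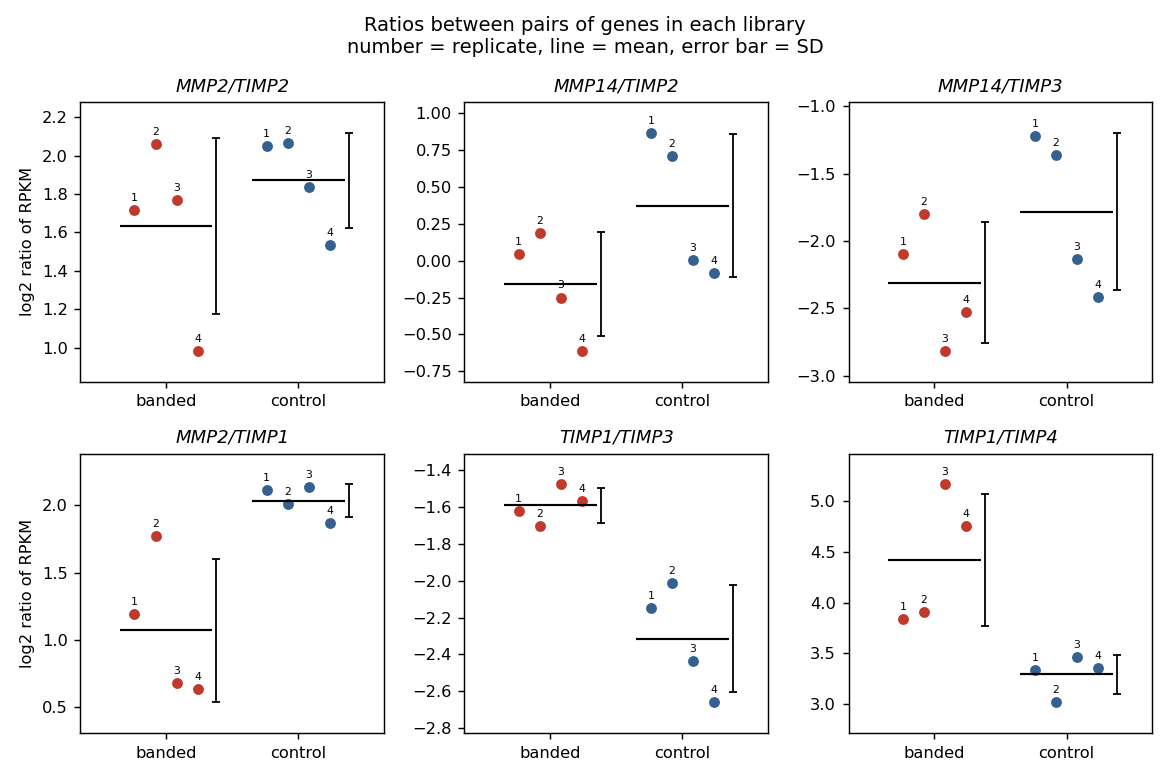
Log2 ratio of RPKM (y axis) for 6 pairs of genes in each banded and control library, with replicate numbers, the group mean as a line and the SD as a bar; the axes do not start at 0. Groups are separate for the 3 pairs that contain TIMP1 (MMP2/TIMP1, TIMP1/TIMP3 and TIMP1/TIMP4), each with an adjusted exact p of 0.0571, and overlap in the upper 3 panels.

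Related genes were read from 11 lists, whose counts stand against 6.97% of all tested genes called, 3.47% higher and 3.5% lower. In the rest of the MMP family, 15 of 19 names matched, 8 were tested, 1 was called higher and 1 lower. MMP11 (stromelysin-3), which furin activates inside the cell, fell to 14.1, 11.6, 7.51 and 14.2 CPM in banded 1 to 4, against 36.7, 46.1, 42.4 and 47.6 CPM in controls (log2 fold change -1.87 ± 0.20, edgeR adjusted p = 0.00047). MMP11 was the most abundant of those 8 per length. MMP23B, a membrane-anchored member whose human counterpart has a near-identical copy, rose to 30.4 ± 11.8 CPM in banded pigs, against 9.69 ± 2.41 CPM in controls (SD, n = 4 each, edgeR adjusted p = 0.0156).

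Of 12 tested ADAM genes 0 were called higher and 1 lower, of 16 ADAMTS genes 1 higher and 2 lower, and of 6 ADAMTS-like genes 2 higher and 0 lower. ADAM22, which lacks protease activity, fell (log2 fold change -2.33 ± 0.27), as did ADAMTS6 (-1.31 ± 0.16) and ADAMTS7 (-0.60 ± 0.16), while ADAMTS3, a procollagen aminopropeptidase, rose (1.43 ± 0.34). ADAMTSL5 (1.40 ± 0.19) and ADAMTSL2 (1.47 ± 0.25), which bind fibrillin and have no catalytic domain, rose. The most abundant members per length, ADAM15, ADAMTS1 and ADAMTSL4, were not called (edgeR adjusted p = 0.925, 0.679 and 0.979). BMP1, the procollagen carboxypropeptidase, was the 1 gene called among 5 for propeptide processing, at 66.6 ± 7.02 CPM in banded pigs and 37.3 ± 2.49 CPM in controls (SD, n = 4 each). Its enhancer PCOLCE was at 124 ± 31.1 CPM in banded pigs and 125 ± 19.6 CPM in controls.

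Among 15 genes for activation of MMPs and their membrane partners, ITGAV, the alpha-v integrin, rose (log2 fold change 0.83 ± 0.14) and the proprotein convertase PCSK6 fell (-0.72 ± 0.12). CD63, a tetraspanin that binds TIMP1 at the cell surface, was the most abundant of them and missed the threshold (0.51 ± 0.14, edgeR adjusted p = 0.0523). FURIN, which activates MMP14 and MMP11, was at 48.7 ± 17.0 CPM in banded pigs and 50.8 ± 6.26 CPM in controls (SD, n = 4 each). FURIN, CTSV and the genes whose calls changed without banded 3 were named after their values were seen. Of 14 plasminogen and thrombin genes 1 was called, ANXA2, a surface receptor for plasminogen (0.81 ± 0.15, higher), and 13 had a positive log2 fold change, with a median of 0.55, where 51.6% of all tested genes had a positive one. Without banded 3, 12 were positive against 50.6% of all tested genes, the median was 0.27 and S100A10, the partner of ANXA2, was called as well (adjusted p = 0.0495).

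Of the 10 other serpins tested, SERPINF1, a serpin without inhibitory activity, was called higher (log2 fold change 0.72 ± 0.20). SERPINB2, an inhibitor of urokinase, had the highest mean RPKM of them over all 8 libraries, a mean that banded 3 raised. It was at 153, 165, 2395 and 214 CPM in banded 1 to 4, against 63.1, 42.7, 60.2 and 79.6 CPM in controls. Without banded 3 its banded mean was 177 ± 32.0 CPM, against 300 ± 80.0 CPM for SERPINF1 (SD, n = 3). SERPINB2 was not called by edgeR with all 8 libraries (adjusted p = 0.105). It was called without banded 3 (1.53 ± 0.20, edgeR adjusted p = 0.00164) and with limma-voom (0.0259). DESeq2 gave it no p. Among 15 other protease inhibitors 3 were called higher and 0 lower. PI16, a fibroblast surface protein, rose (2.13 ± 0.21), as did cystatin C (CST3, 1.07 ± 0.25), an inhibitor of cysteine cathepsins, and WFDC1 (1.01 ± 0.24). Of 13 cathepsin genes 2 were called higher, CTSH (0.86 ± 0.21) and CTSL (1.45 ± 0.36), and CTSD, the most abundant, was not (0.60 ± 0.17, edgeR adjusted p = 0.0568). CTSL and CTSV are related genes, and whether reads were split or lost between their models was not tested. The model named CTSL was low, at 4.66 ± 2.42 CPM in banded pigs without banded 3 (SD, n = 3). The model named CTSV was at 102 ± 10.5 CPM in banded pigs and 93.0 ± 7.29 CPM in controls (SD, n = 4 each).

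Of the 18 called genes named from these lists, 10 kept their call without any 1 library, and these were MMP11, MMP23B, ADAM22, ADAMTS6, ADAMTSL5, ADAMTSL2, BMP1, ITGAV, PCSK6 and PI16. ANXA2 lost it without control 1 (adjusted p = 0.0519). The calls of CST3 ended without any 1 control, those of ADAMTS3, ADAMTS7, SERPINF1 and CTSL without any 1 control and without 2 or 3 of the banded libraries, that of WFDC1 without controls 1, 2 or 3 or banded 4, and that of CTSH without controls 1, 2 or 3, banded 2 or banded 3. Without banded 3, 6.72% of all 13965 tested genes were called. The number of list members called was then 3 in place of 2 for the membrane partners, where CD44 was added. It was 2 in place of 1 for the plasminogen list and 2 in place of 1 for the serpins. The counts of called genes in the other lists stayed, with ADAMTS12 (-0.93, edgeR adjusted p = 0.0197) called in place of ADAMTS7 and CTSD (0.70, edgeR adjusted p = 0.0247) in place of CTSH. The median log2 fold change of the 16 ADAMTS genes was -0.17 with all 8 libraries and -0.50 without banded 3. Of these genes, 7 were positive with all 8 libraries and 5 without banded 3.

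**Figure D5:**
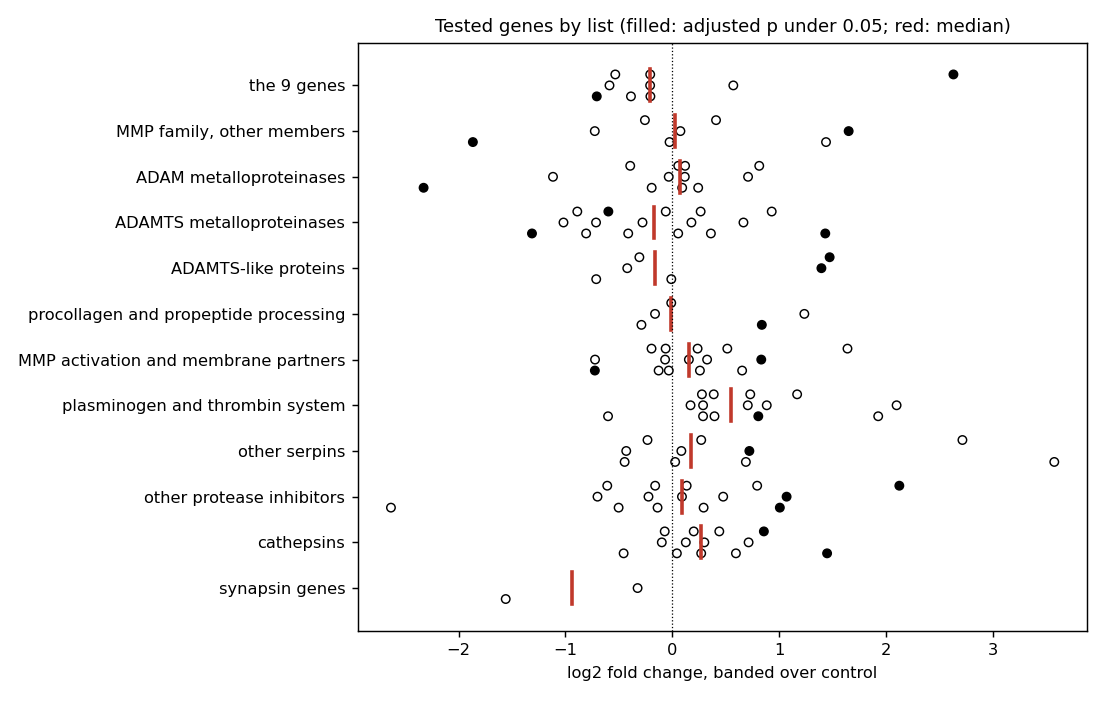
Log2 fold change of banded over control (x axis) for the 9 genes and the tested members of 11 lists, with filled points for an adjusted p under 0.05 and a red bar at each median. The median of the 9 genes is -0.21 and that of the plasminogen and thrombin list 0.55, and called genes lie on both sides of 0 in the MMP family.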

How the data were processed

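Per the labels' protocols, RNA was extracted from powdered frozen right ventricle with TRIzol and a column step with DNase. The deposited counts are whole read pairs per gene from featureCounts 1.6.2, per the file headers, with a mapping quality of at least 10, strand setting 2 and Ensembl release 106 of Sscrofa11.1. Trimmomatic, HISAT2 and DESeq2 are named in the submitters' processing notes, with no versions in the sources used here. The authors' deposited table holds a mean normalised signal, log2 fold changes (control over banded) with standard errors, a Wald score, p-values, and percent identity with human orthologues.

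Counts were filtered with filterByExpr (minimum count 10, minimum total 15), scaled by TMM and tested with the robust quasi-likelihood F test of edgeR 4.0.16 in R 4.3.3, two-sided, banded over control, 4 libraries each. Benjamini-Hochberg adjustment ran over all 13697 tested genes with a threshold of 0.05. The SE is the log2 fold change over the square root of F. CPM and RPKM are TMM-normalised. DESeq2 1.42.0, limma 3.58.1 (voom with quality weights), other scalings and filters, removal of mitochondrial-genome genes and of each library in turn were alternatives. The labels give no cultures or litters beyond 1 animal per library and no replicate numbers, so no pairing was fitted.

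Symbols came from a gene name table, the deposited table and one-to-one human names. The 9 members, the pairs and the lists (141 of 149 entries matched) were chosen with earlier results of these data known. The genes named from each list are its called genes (at most 3, by adjusted p) and the gene with the highest RPKM, and for each called member the 3 nearest profiles.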

Additional observations from a re-analysis of the deposited data

Results flagged for a closer look

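In 6 of 94 groups of 4 libraries checked, 1 library lay far from the other 3 by a gap above Dixon's critical share of the group's range, which chance gives in about 1 in 20 groups. Banded 3 held 427 CPM of SERPINE2, against 125 to 173 CPM in the other banded libraries. It was also the far library for SERPINB2 (2395 CPM, against 153 to 214 CPM) and CNN1 (1348 CPM, against 156 to 349 CPM). Banded 1 was low for TIMP2 (101 CPM, against 133 to 138 CPM), and banded 4 was high for WFDC1 (105.9 CPM, against 61.5 to 65.7 CPM). Control 1 was high for FHL1 (229 CPM, against 187 to 193 CPM). The log2 fold change of SERPINE2 was 2.08 without banded 3.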

How the results depend on the processing

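The direction of all 9 genes held in every alternative run, as did the call of SERPINE2 and the missing calls of the 7 uncalled members. The call of MMP14 held under the 7 other settings and ended in 5 of the 8 fits without 1 library. The number of members called was 2 throughout, and 1 to 2 without 1 library. DESeq2 called 1710 genes in place of 954. Without 1 library 399 to 962 genes were called, with 399, 415 and 409 without controls 1, 2 and 3. Scaling by library size alone called 303 genes higher and 508 lower, against 475 and 479, and put the median over all genes at -0.09 on the log2 scale, against 0.02. It ended the calls of ADAMTS3, ADAMTS7, SERPINF1, CST3 and CTSL, and limma-voom that of ADAMTS3. CD63, CTSD and CNN1 were called by DESeq2 and limma-voom, and SERPINB2 by limma-voom. Log2 fold changes without 1 library ranged from -0.58 to -0.24 for MMP2, from -0.87 to -0.61 for MMP14, from -0.31 to -0.11 for MMP15, from -0.65 to -0.40 for MMP19, from 0.32 to 0.68 for TIMP1, from -0.31 to -0.11 for TIMP2, from -0.40 to -0.04 for TIMP3, from -0.70 to -0.47 for TIMP4 and from 2.08 to 2.82 for SERPINE2. The uncalled genes ADAM15 (-0.11 to 0.0918), ADAMTSL4 (-0.10 to 0.11) and PCOLCE (-0.16 to 0.13, and 0.0399 with limma-voom) changed sign, and the cause was not tested. The 6 ratios kept their direction with log2(CPM + 1) and without any 1 library. An adjusted p under 0.05 would need the smallest exact p, 0.0286, in at least 4 of the 6 pairs, so that its absence says nothing about stability. The counts of list members without banded 3 were added after seeing the data. No paired analysis was possible because the labels give the animals no shared replicate numbers.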
